A study of Mus musculus with 16 samples.

Results

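A set of 10 named genes of the canonical Wnt pathway and its kinase GSK3 was followed through ribosome footprint and RNA libraries of Fmr1 knockout and wild-type adult neural stem cells, namely Fzd3, Gsk3b, Gsk3a, Apc, Axin1, Axin2, Ctnnb1, Lef1, Tcf7l2 and Hdac1. The rule takes them by name and uses no measured value, and all 10 were found among the 20409 genes of the deposited count table. Genotype was the comparison the study was built for. Donor animals were male FVB/N mice aged 8 to 10 weeks, either Fmr1-/y knockouts (KO) or wild-type (WT) littermates, and cells isolated independently from the dentate gyrus made up the 4 replicates of each group. Both genotypes were cultured with the growth factors EGF and FGF2 (20 ng/ml of each), and 10 min of cycloheximide at 100 µg/ml froze ribosomes on their messages ahead of the harvest. From each culture, cytoplasmic RNA and nuclease-protected footprints (fragments covered by a ribosome) were sequenced, giving 16 libraries from 8 cultures. The molecular identifier in footprint libraries was 8 nt long for replicates 3 and 4, against 5 nt for replicates 1 and 2. Growth in culture means that the cells are an expanded population and not the stem cells of the intact niche.

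In the canonical Wnt pathway, a Wnt ligand binds a Frizzled receptor such as Fzd3 and its LRP co-receptor. Without ligand, a destruction complex built on the scaffolds Axin1, Axin2 and Apc holds beta-catenin (Ctnnb1) where GSK3, made by the paralogous genes Gsk3a and Gsk3b, phosphorylates it and marks it for degradation. With ligand, beta-catenin accumulates and joins the TCF/LEF factors Tcf7l2 and Lef1 on target genes, and Axin2 is itself a well-known target. Hdac1 is a class I histone deacetylase that sits in corepressor complexes and can act at TCF/LEF sites. Wnt signalling is known to act on the proliferation and neuronal fate of adult hippocampal stem cells, and FMRP, the RNA-binding protein made from Fmr1, has been described as a regulator of GSK3 beta translation in these cells.

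The promoters of Gsk3b and Ctnnb1 are shown because the RNA of both genes was at lower levels in replicates 3 and 4 than in replicates 1 and 2, without overlap, and that of Gsk3a so that the paralogous kinase genes can be compared. Such sets without overlap were common, at 31.1% of all genes in RNA. With KO and WT counts summed per replicate number, neither gene passed (edgeR adjusted p = 0.0782 for Gsk3b and 0.119 for Ctnnb1). Each is the 250 bases before a transcription start in RefSeq (GRCm38.p6), written 5′ to 3′ on the strand of the gene, with motif letters in capitals. The motifs searched on both strands were the TCF/LEF letters CTTTGAA or CTTTGAT, with the variants CTTTGTA or else CTTTGTT, and the box CCAAT, which do not overlap one another in these windows. Among 32851 windows of this length, 14.8% held a TCF/LEF match and 33.8% held CCAAT.
Gsk3b (chr16:38088751-38089000, plus strand): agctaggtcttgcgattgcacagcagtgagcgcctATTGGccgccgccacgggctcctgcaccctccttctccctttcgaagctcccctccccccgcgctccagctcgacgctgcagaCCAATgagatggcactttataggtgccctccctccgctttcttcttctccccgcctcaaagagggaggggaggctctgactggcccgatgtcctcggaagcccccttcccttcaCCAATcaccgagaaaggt
Ctnnb1 (chr9:120933150-120933399, plus strand): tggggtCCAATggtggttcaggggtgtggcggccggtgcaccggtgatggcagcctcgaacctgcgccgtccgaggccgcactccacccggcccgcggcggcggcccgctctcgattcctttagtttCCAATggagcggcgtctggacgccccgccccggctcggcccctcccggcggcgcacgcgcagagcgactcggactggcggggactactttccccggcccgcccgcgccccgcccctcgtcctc
Gsk3a (chr7:25237852-25238101, minus strand): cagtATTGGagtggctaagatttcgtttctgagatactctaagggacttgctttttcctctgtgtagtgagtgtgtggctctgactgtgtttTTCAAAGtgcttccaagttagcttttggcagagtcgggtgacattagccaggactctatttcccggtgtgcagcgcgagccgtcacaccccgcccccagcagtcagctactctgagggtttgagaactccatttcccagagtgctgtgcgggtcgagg
RefSeq gives Ctnnb1 another start, whose window (chr9:120933328-120933577) held 0 matches of either kind. The Gsk3b window held 3 CCAAT boxes and 0 TCF/LEF matches, and the Ctnnb1 window shown held 2 CCAAT boxes and 0 TCF/LEF matches. In the Gsk3a window there was 1 match of each kind, the TCF/LEF match reading TTCAAAG because it lies on the other strand. These matches describe letters only.

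Library totals were 9430732 to 17220236 estimated counts for footprints and 5343042 to 6600023 for RNA. Fmr1 footprints were 24.1, 27.0, 12.7 and 14.7 CPM (counts scaled to library size) in KO replicates 1 to 4, against 129, 149.6, 149 and 149 CPM in WT replicates 1 to 4. The footprint groups did not overlap, and Fmr1 fell in KO by 2.93 on the log2 scale (SE 0.22, edgeR adjusted p = 0.0140). The size of that difference was the same with the replicate block (-2.93), where the adjusted p over all genes was 0.143. Leaving out WT replicate 2, 3 or 4 or KO replicate 1 or 2 gave adjusted p of 0.0565 to 0.134, with values of -3.06 to -2.85. In RNA, Fmr1 was 8.62, 30.8, 10.7 and 3.35 CPM in KO and 40.8, 107, 37.2 and 27.4 CPM in WT; KO replicate 2 lay inside the WT range, and the gene did not pass the threshold there (log2 fold change -1.99, SE 0.67). Of 10 neural stem and progenitor markers, 9 averaged at least 1 TPM in RNA and Prom1 was listed at 0 in every library, with summed levels of 3418 to 8252 TPM in KO and 4233 to 10105 TPM in WT. Of 8 oligodendrocyte lineage markers, 6 averaged at least 1 TPM and summed to 1625 to 2476 TPM in KO and 1669 to 2307 TPM in WT. Most of that was Olig1 and Olig2, while Sox10 was listed at 0 and Mog at no more than 1 TPM. Microglial markers summed to 0 to 1 TPM in KO and in WT.

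No member of the pathway set passed the test between KO and WT in footprints, in RNA or in footprints relative to RNA. In the fits without the replicate block, every log2 change was smaller in size than its standard error. With the block, that of Axin2 in footprints (-0.15, SE 0.14) was larger. Of the 10 genes tested, 0 passed an adjusted p of 0.05 in edgeR's quasi-likelihood test in footprints, where 0.0349% of 11472 genes did (0.0262% higher and 0.00872% lower in KO). In RNA the count was 0 of 10 beside 0.00901% of 11097 genes, and in the footprint-to-RNA comparison 0 of 10 beside 0% of 10863 genes. At an unadjusted p of 0.05, 0 of 10 members passed in each of the 3 comparisons. Over all genes 4.59% passed in footprints, 1.87% in RNA and 0.129% in footprints relative to RNA. The shares in RNA and in footprints relative to RNA were well below what this threshold allows. With only 10 genes, 0 of 10 says little in any of the 3 comparisons. In footprints relative to RNA 57 of 10863 genes passed with the replicate block, beside 14 without it. DESeq2 also called 0 of 10 members at an adjusted p of 0.05 in each comparison, beside 56 genes higher and 26 lower in footprints. In RNA it called 13 genes higher and 7 lower, and in footprints relative to RNA 0. Limma-voom called 0 of 10 members in each, beside 3 genes higher and 3 lower in footprints and 0 in other comparisons. Replicates 3 and 4 alone gave 0 of 10 members, beside 1 gene higher and 1 lower in footprints and 0 in other comparisons. Within replicates 1 and 2 alone 0 genes passed in any comparison, so 0 of 10 says nothing about the members there. Genotypes overlapped for all 10 members in both assays, whereas 1.87% of all genes in footprints and 1.28% in RNA had groups that did not overlap. The median log2 fold change of the 10 was -0.06 in footprints, 0.00 in RNA and -0.03 in footprints relative to RNA, beside 0.01 over all genes tested in each comparison.

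**Figure D1:**
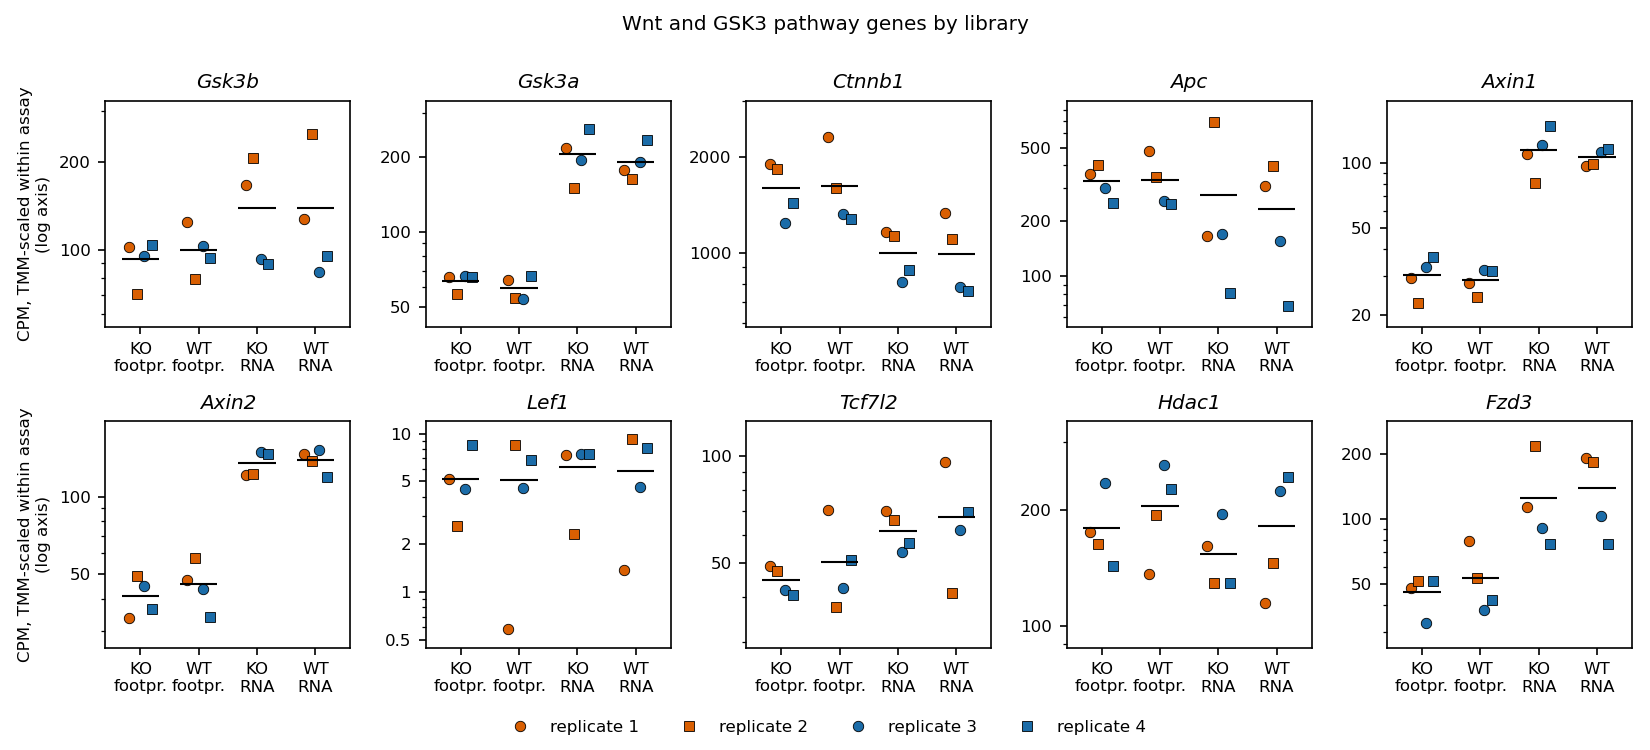
CPM of the 10 genes in each library on a log axis, KO left of WT within footprints and within RNA; each point is 1 library, coloured by replicate number (blue for 3 and 4, orange for 1 and 2), and bars are group means. KO and WT overlap in every panel. RNA points of Gsk3b, Ctnnb1, Fzd3 and Axin1 split by replicate number, beside 31.1% of all genes. Footprint points of Ctnnb1, Apc and Axin1 also split, beside 31.6% of all genes. Replicates 3 and 4 are the higher points for Axin1 and the lower for the others. Gsk3b RNA, for example, was 83.8 to 94.8 CPM in replicates 3 and 4 and 127 to 249 CPM in replicates 1 and 2.

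Fzd3, the Frizzled receptor of the set, had footprint levels of 48.1, 51.6, 33.0 and 51.6 CPM in KO replicates 1 to 4, against 79.3, 53.0, 37.9 and 42.3 CPM in WT. Its RNA was 113, 218, 91.0 and 76.7 CPM in KO and 192, 184, 103 and 76.5 CPM in WT. In RNA the low libraries were replicates 3 and 4 of both genotypes. The KO over WT log2 fold change was -0.17 in footprints (SE 0.20, 95% interval -0.64 to 0.30) and -0.16 in RNA (SE 0.40, -1.07 to 0.76).

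Of the destruction complex, Gsk3b, one of the GSK3 kinases, had footprint levels of 102, 70.3, 95.1 and 103 CPM in KO replicates 1 to 4, against 124, 79.1, 103 and 93.2 CPM in WT. Replicate 2 was the lowest of its group in both genotypes, and KO was above WT in 1 of 4 same-numbered pairs. Gsk3b RNA was 167, 207, 92.6 and 89.5 CPM in KO and 127, 249, 83.8 and 94.8 CPM in WT, with replicate 2 the highest and replicates 3 and 4 the lowest in each genotype. The log2 fold change of Gsk3b was -0.11 in footprints (SE 0.19, 95% interval -0.54 to 0.32) and 0.00 in RNA (SE 0.41, -0.92 to 0.92). For footprints relative to RNA it was -0.09 (SE 0.48, -1.12 to 0.94). When same-numbered KO and WT cultures were treated as pairs (replicate block), the intervals of Gsk3b narrowed to -0.38 to 0.18 in footprints, -0.31 to 0.40 in RNA and -0.54 to 0.27 in footprints relative to RNA, and the adjusted p was 0.907 or above in all 3. On the linear scale the blocked footprint interval runs from 0.767 to 1.13 times the WT level.

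Gsk3a, the paralogous kinase, was steadier in footprints, at 56.7 to 66.6 CPM in KO and 54.1 to 66.9 CPM in WT. Its RNA ranged from 149 to 257 CPM in KO and from 163 to 233 CPM in WT. The log2 fold change was 0.09 (SE 0.12) in footprints and 0.10 (SE 0.22) in RNA.

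Apc, a large scaffold of the complex, had footprint levels of 358, 400.0, 303 and 251 CPM in KO replicates 1 to 4, against 476, 346, 257 and 248 CPM in WT. Its RNA was 167, 687, 169.7 and 81.9 CPM in KO and 308, 399, 155 and 69.0 CPM in WT. Its RNA had the highest coefficient of variation of the 10 members, 81.4% over 8 libraries, with KO replicate 2 the highest and replicate 4 the lowest in each genotype. The KO over WT log2 fold change was 0.01 in footprints (SE 0.15) and 0.25 in RNA (SE 0.70, 95% interval -1.32 to 1.82), and leaving out KO replicate 2 turned the RNA value to -0.74. That last fit kept WT replicate 2, the highest WT library. With the replicate block over all cultures the RNA value of Apc was 0.07 (SE 0.27, 95% interval -0.56 to 0.71). The scaffolds Axin1 and Axin2 varied less. Axin1 footprints were 22.7 to 36.9 CPM in KO and 24.2 to 31.9 CPM in WT, and its RNA was 80.5 to 148 CPM in KO and 96.8 to 116 CPM in WT. Axin2, which limits the pathway that induces it, had footprints of 33.5 to 48.9 CPM in KO and 33.8 to 57.7 CPM in WT, and RNA of 122 to 149.5 CPM in KO and 119 to 151 CPM in WT. Their log2 fold changes were 0.07 (Axin1, SE 0.13) and -0.14 (Axin2, SE 0.18) in footprints, and 0.12 (Axin1, SE 0.22) and -0.04 (Axin2, SE 0.18) in RNA.

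Ctnnb1, which encodes beta-catenin, had footprint levels of 1912, 1837, 1239 and 1431 CPM in KO replicates 1 to 4, against 2314, 1597, 1322 and 1276 CPM in WT. Its RNA was 1165, 1134, 807 and 881 CPM in KO and 1337, 1102, 779.9 and 758 CPM in WT. In both assays and both genotypes replicates 3 and 4 were the lower libraries. The KO over WT log2 fold change was -0.01 in footprints (SE 0.14, 95% interval -0.35 to 0.32) and 0.00 in RNA (SE 0.24, -0.55 to 0.55).

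Among the nuclear factors, Tcf7l2 had footprints of 40.5 to 49.1 CPM in KO and 37.6 to 70.4 CPM in WT, and RNA of 53.5 to 69.8 CPM in KO and 41.2 to 96.1 CPM in WT. WT replicate 1 was the highest Tcf7l2 library in each assay. The log2 fold change of Tcf7l2 was -0.17 in footprints (SE 0.19) and -0.13 in RNA (SE 0.27). Lef1, its relative, was sparsely counted, with 8 to 112 estimated counts per footprint library and 7 to 60 per RNA library. Lef1 footprints were 5.2, 2.61, 4.46 and 8.42 CPM in KO replicates 1 to 4 and 0.581, 8.5, 4.56 and 6.81 CPM in WT. WT replicate 1 was the lowest and WT replicate 2 the highest, so the 95% interval of the Lef1 fold change in footprints, -1.57 to 1.54 on the log2 scale, runs from 0.336 to 2.90 times the WT level.

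Hdac1, the deacetylase, had footprint levels of 176, 163, 235 and 143 CPM in KO replicates 1 to 4, against 136, 194, 261 and 226 CPM in WT. Its RNA was 161, 129.5, 195 and 129.6 CPM in KO and 115, 146, 224 and 243 CPM in WT. KO exceeded WT only in replicate 1, in both assays, and the groups overlapped. The log2 fold change of Hdac1 was -0.17 in footprints (SE 0.20, 95% interval -0.63 to 0.30), -0.24 in RNA (SE 0.28, -0.87 to 0.39) and 0.09 in footprints relative to RNA (SE 0.36, -0.69 to 0.86). In bulk libraries such as these, fewer cells of a type and less RNA per cell cannot be told apart.

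**Figure D2:**
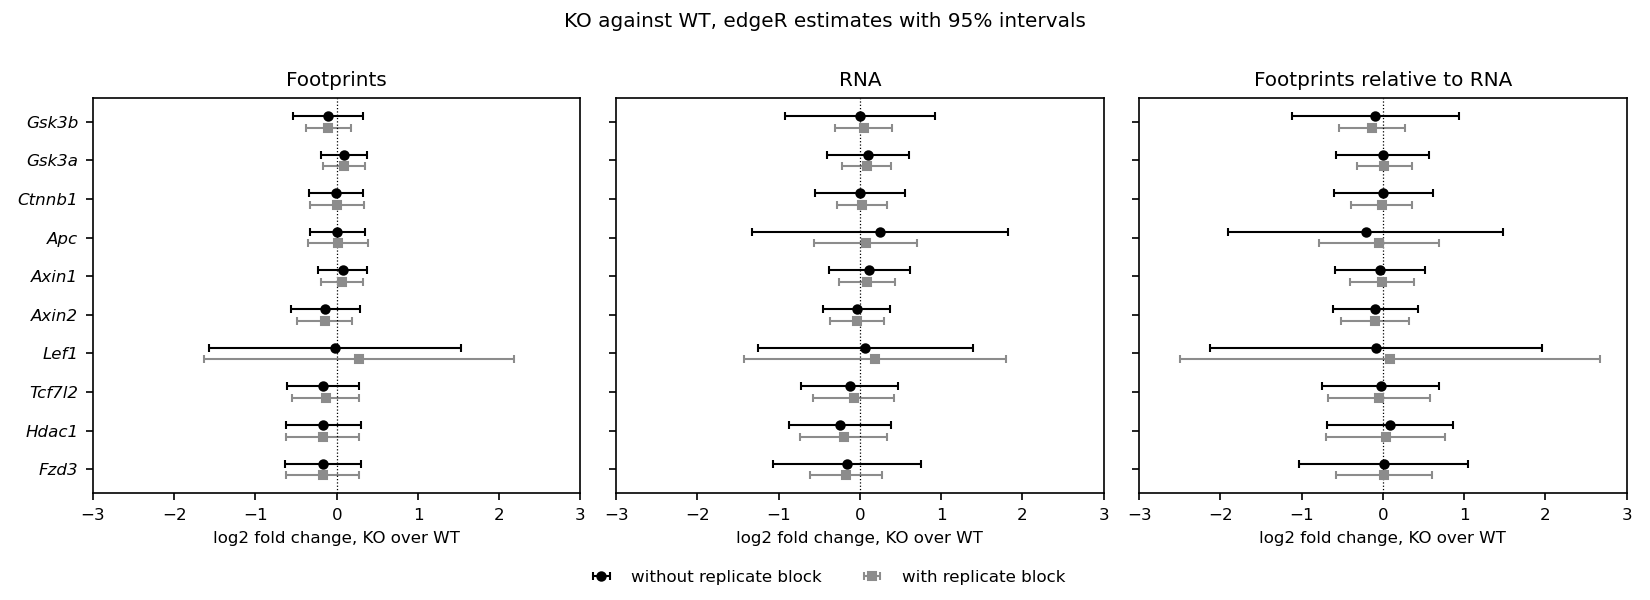
Log2 fold changes of KO over WT (horizontal axis) for the 10 genes in footprints, RNA and footprints relative to RNA; points are edgeR estimates and bars their 95% intervals, in black without and in grey with the replicate block. All 60 intervals include 0, and the widest in either fit is that of Lef1 in footprints relative to RNA.

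The wider pathway was described with 7 lists of ligands, receptors, inhibitors, destruction complex regulators, nuclear partners, targets and class I deacetylase complexes, 125 genes with the members. Genes of these lists past the threshold between KO and WT numbered 0 of 95 tested in footprints, 0 of 93 in RNA and 0 of 93 in footprints relative to RNA; at an unadjusted p of 0.05 they numbered 8 of 95, 4 of 93 and 0 of 93, where 4.59%, 1.87% and 0.129% of all genes passed in the same order. Their median log2 fold change was -0.01 in footprints and 0.04 in RNA. Ror2, a receptor tyrosine kinase for Wnt5a, had the smallest p of the lists in footprints, at 7.75 ± 2.21 CPM in KO and 19.9 ± 6.03 CPM in WT (SD, n = 4 each, log2 fold change -1.37, SE 0.24, edgeR adjusted p = 0.235). Tle3, a Groucho-type corepressor, was at 24.8 ± 2.67 CPM in KO and 36.8 ± 2.36 CPM in WT (SD, n = 4 each, log2 fold change -0.57, SE 0.11, edgeR adjusted p = 0.347). Fzd10, another Frizzled receptor, had 12.9 ± 4.73 CPM in KO and 7.18 ± 3.73 CPM in WT (SD, n = 4 each, log2 fold change 0.93, SE 0.20, edgeR adjusted p = 0.407). In RNA Ror2 also had the smallest p of the lists (log2 fold change -1.53, SE 0.41) without passing the edgeR threshold. The smallest RNA p among ligands was that of Wnt4, at 14.9 ± 9.68 CPM in KO and 2.75 ± 2.36 CPM in WT (SD, n = 4 each, log2 fold change 2.45, SE 0.70), and it did not pass the edgeR threshold. The most abundant genes of the lists by RNA were Ccnd1, the cell cycle gene for cyclin D1, at 1009.9 ± 387.7 TPM, Ctnnb1, and Rbbp4, a histone chaperone of deacetylase complexes, at 297 ± 45.9 TPM (SD over 8 libraries). Wnt5a, at 108 ± 21.3 TPM, was the most abundant ligand gene, and Ryk, a Wnt receptor of the tyrosine kinase family, the most abundant receptor gene at 170.1 ± 13.7 TPM. Transcripts of Wnt2, Wnt8a, Wnt10b, Wnt16, Dkk1, Dkk2 and Dkk4 had 0 counts in all 16 libraries.

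Levels of the members spanned a wide range when scaled by length as TPM. Ctnnb1 was the highest in both assays, at 630.1 ± 188.7 TPM in footprints and 443 ± 134 TPM in RNA (SD over 8 libraries), and Lef1 was the lowest, at 4.00 ± 2.20 TPM in footprints and 6.0 ± 3.16 TPM in RNA. In RNA the next members were Gsk3a at 147 TPM, Gsk3b at 132 TPM and Hdac1 at 127 TPM, whose ranges overlapped from each to the next. They were followed by Fzd3 at 71.8 TPM, Axin2 at 55.2 TPM, Axin1 at 44.1 TPM, Tcf7l2 at 43.8 TPM and Apc at 29.6 TPM, each again overlapping the next. In footprints Hdac1 at 121 TPM and Gsk3b at 71.6 TPM overlapped, Gsk3b was above Gsk3a at 38.8 TPM in 8 of 8 libraries without overlap, and Apc, Tcf7l2, Fzd3, Axin2 and Axin1 followed from 34.4 down to 10.5 TPM with overlapping neighbours. In RNA, by contrast, Gsk3b was above Gsk3a in 2 of 8 libraries, which were replicate 2 of KO and of WT.

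The log2 ratio of footprint CPM to RNA CPM in each culture placed the members at different points of the range of all 10863 genes. Apc at 0.72 and Ctnnb1 at 0.70 (means over 8 cultures) stood at the 76.7th and 76.0th percentiles, and Hdac1 at 0.20 stood at the 62.0th. Lef1 at -0.34, Tcf7l2 at -0.43 and Gsk3b at -0.43 lay between the 41.4th and 44.6th percentiles. Fzd3 at -1.34, Gsk3a at -1.66, Axin2 at -1.68 and Axin1 at -1.88 lay at the 16.5th percentile or lower. The ratio of Axin1 spanned only -2.02 to -1.79 over the 8 cultures, and that of Gsk3b spanned -1.65 to 0.29. In 6 of the 8 cultures the ratio of Gsk3b was within -0.71 and 0.29, and KO replicate 2 (-1.55) and WT replicate 2 (-1.65) were far lower. The mean ratio of Gsk3b was -0.51 ± 0.80 in KO and -0.36 ± 0.88 in WT, and that of Ctnnb1 was 0.68 ± 0.04 in KO and 0.71 ± 0.12 in WT (SD, n = 4 each).

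**Figure D3:**
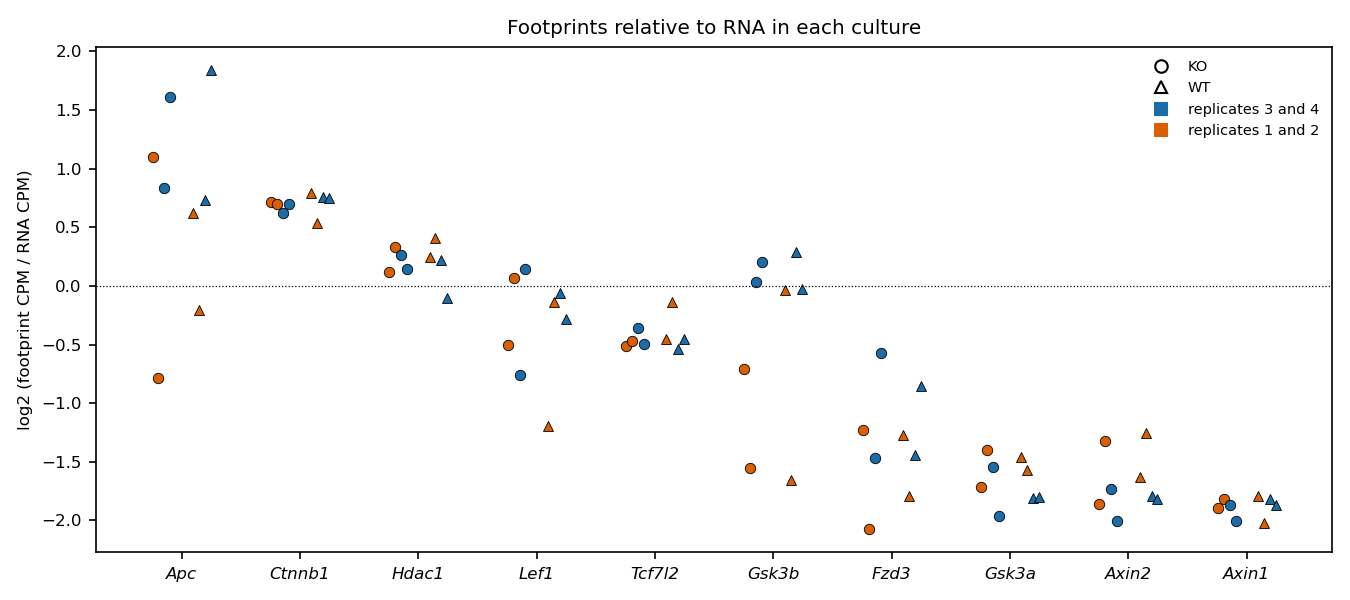
Log2 ratio of footprint CPM to RNA CPM (vertical axis) for each gene in each of the 8 cultures; circles are KO, triangles WT, blue replicates 3 and 4, orange replicates 1 and 2. Ctnnb1 and Axin1 are tightly grouped, while Apc runs from -0.78 to 1.84 and the 2 lowest Gsk3b points, -1.55 and -1.65, are replicate 2 of KO and WT.

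With each culture taken as a replicate, 4 members were lower in RNA of replicates 3 and 4 than of replicates 1 and 2, namely Gsk3b, Fzd3, Ctnnb1 and Apc. Same-numbered KO and WT libraries deviated together, so each set holds only 2 replicate numbers, and p-values that count 4 libraries a set are too small. With KO and WT summed per number, 2 numbers against 2 (a fit added after the values had been seen), 0 of 10 members passed in RNA or in footprints. In that fit the log2 differences in RNA were -1.07 for Gsk3b (edgeR adjusted p = 0.0782), -1.02 for Fzd3 (edgeR adjusted p = 0.0778), -0.56 for Ctnnb1 (edgeR adjusted p = 0.119) and -1.69 for Apc (edgeR adjusted p = 0.109). The values that follow take the cultures one by one. The count is then 4 of 10, where 25.2% of 11097 genes passed the same test, 13.1% lower and 12.1% higher; at an unadjusted p of 0.05 it was 5 of 10 beside 41.7%. The median log2 difference was -0.04 over the 10 members and -0.03 over all genes. Gsk3b RNA averaged 90.2 ± 4.77 CPM in replicates 3 and 4 and 187 ± 52.4 CPM in replicates 1 and 2 (SD, n = 4 each), with no overlap (log2 fold change -1.06, SE 0.22, edgeR adjusted p = 0.0134). Fzd3 RNA averaged 86.8 ± 12.7 CPM in replicates 3 and 4 and 177 ± 44.9 CPM in replicates 1 and 2, with no overlap (-1.02, SE 0.22, edgeR adjusted p = 0.0152). Without WT replicate 4 the adjusted p of Fzd3 was 0.0518. Ctnnb1 RNA averaged 807 ± 53.4 CPM in replicates 3 and 4 and 1185 ± 105 CPM in replicates 1 and 2, also without overlap (-0.56, SE 0.14, edgeR adjusted p = 0.0223). Apc RNA averaged 119 ± 50.8 CPM in replicates 3 and 4 and 390.3 ± 220.0 CPM in replicates 1 and 2, with KO replicate 3 above KO replicate 1 (-1.71, SE 0.46, edgeR adjusted p = 0.0288). Axin1 RNA did not overlap either, at 124 ± 16.2 CPM in replicates 3 and 4 and 96.4 ± 12.1 CPM in replicates 1 and 2, without passing the threshold (0.36, SE 0.16, edgeR adjusted p = 0.122). Sets without overlap were thus found for 4 of 10 members in RNA, beside 31.1% of all genes.

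Counted the same way in footprints, 2 of 10 members were lower in replicates 3 and 4, where 19% of 11472 genes passed, 11.5% lower and 7.56% higher; at an unadjusted p of 0.05 it was 4 of 10 beside 37.5%. Ctnnb1 footprints averaged 1317 ± 83.2 CPM in replicates 3 and 4 and 1915 ± 298 CPM in replicates 1 and 2 (SD, n = 4 each, log2 fold change -0.54, SE 0.15, edgeR adjusted p = 0.0395). Apc footprints averaged 265 ± 25.9 CPM in replicates 3 and 4 and 395 ± 58.7 CPM in replicates 1 and 2 (-0.58, SE 0.15, edgeR adjusted p = 0.0341). Neither overlapped, and Axin1 footprints, at 33.4 ± 2.42 CPM in replicates 3 and 4 and 26.1 ± 3.16 CPM in replicates 1 and 2, did not overlap either but missed the threshold (0.36, SE 0.13, edgeR adjusted p = 0.0869). Across all genes, 31.6% had footprint sets without overlap. Gsk3b footprints averaged 98.6 ± 5.19 CPM in replicates 3 and 4 and 93.9 ± 24.2 CPM in replicates 1 and 2, a log2 difference of 0.08 (SE 0.19, 95% interval -0.35 to 0.50), and Fzd3 footprints differed by -0.48 (SE 0.20, edgeR adjusted p = 0.128). With KO and WT summed per number, the footprint differences were -0.55 for Ctnnb1 (edgeR adjusted p = 0.112) and -0.58 for Apc (edgeR adjusted p = 0.0926). The Ctnnb1 and Apc footprint calls also rested on the full set of cultures: leaving out any of WT 3, WT 4, KO 1, KO 2 or KO 4 ended both, and leaving out KO 3 ended that of Ctnnb1. In RNA the Ctnnb1 call was lost without WT 3, WT 4, KO 2, KO 3 or KO 4 (adjusted p at most 0.0734) and the Apc call without WT 2, WT 4, KO 2 or KO 4 (adjusted p at most 0.101).

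The difference between assays was tested for the same contrast in 1 model over 16 libraries, a comparison added after the values had been seen. Of 10 members 0 passed an adjusted p of 0.05, beside 0% of 10863 genes, while at an unadjusted p of 0.05 the counts were 2 members and 1412 genes (13%). DESeq2 called 0 members, and 25 genes higher and 25 lower. For Gsk3b the footprint-to-RNA ratio differed by 1.14 between the sets of replicates (SE 0.29, 95% interval 0.52 to 1.76, edgeR adjusted p = 0.313) and for Apc by 1.15 (SE 0.51, 0.06 to 2.24, edgeR adjusted p = 0.370). That model also takes the cultures one by one, so these intervals are too narrow. With KO and WT summed per number, the SE was 0.387 for Gsk3b and 0.627 for Apc. The edgeR p in that fit was 0.0158 for Gsk3b and 0.0975 for Apc, with an adjusted p of 0.778 for each.

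**Figure D4:**
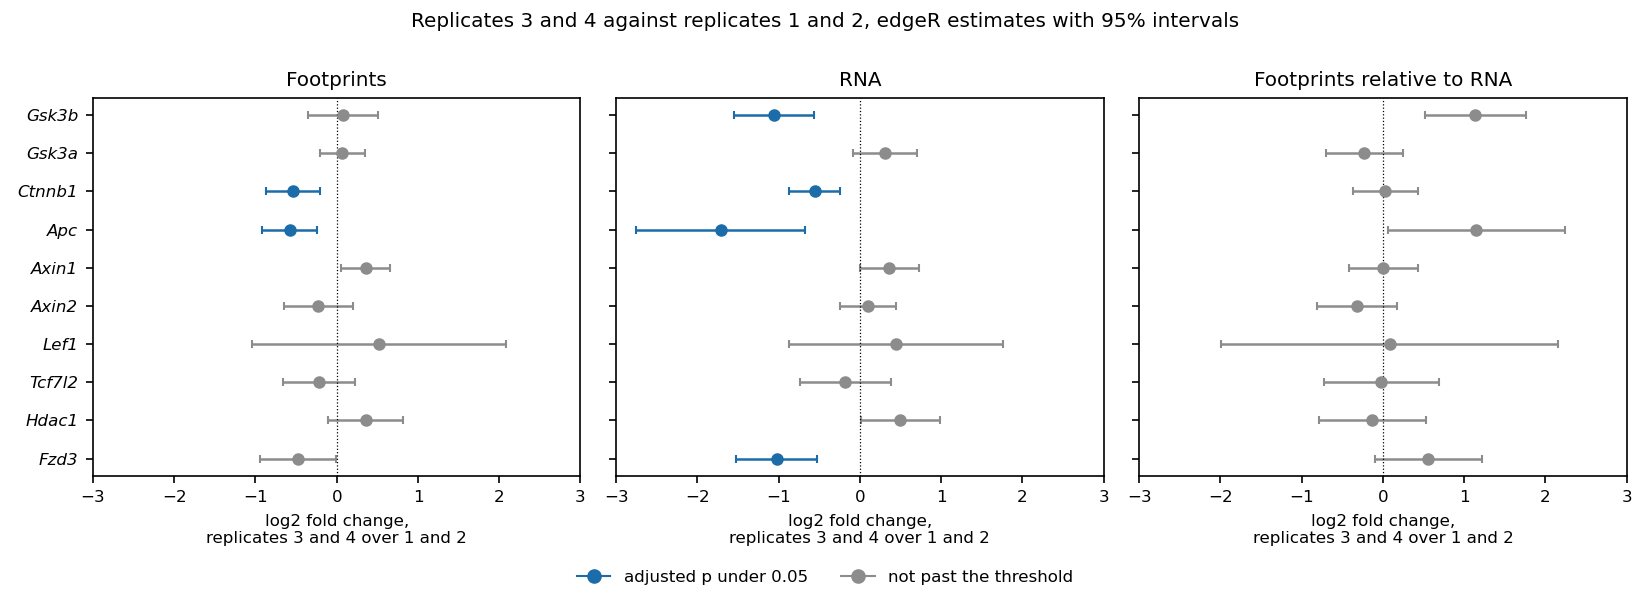
Log2 fold changes of replicates 3 and 4 over replicates 1 and 2 (horizontal axis) for the 10 genes in footprints, RNA and footprints relative to RNA; points are edgeR estimates, bars 95% intervals, and blue marks an adjusted p under 0.05 with each culture as a replicate. Blue points are Gsk3b, Ctnnb1, Apc and Fzd3 in RNA and Ctnnb1 and Apc in footprints, all below 0; none passes when KO and WT are summed per replicate number.

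Marker sums and gene length were set beside the same sets of replicates. Summed stem and progenitor markers in RNA were 3418 to 5533 TPM in replicates 3 and 4 and 5457 to 10105 TPM in replicates 1 and 2. All 6 astrocyte markers averaged at least 1 TPM, and their sums were 17 to 93 TPM in replicates 3 and 4 and 230 to 728 TPM in replicates 1 and 2. Ependymal markers, 2 of 4 at 1 TPM or more and with Pifo and Tmem212 listed at 0, summed to 34 to 67 TPM in replicates 3 and 4 and 23 to 36 TPM in replicates 1 and 2. Oligodendrocyte lineage markers summed to 1669 to 2476 TPM in replicates 3 and 4 and 1625 to 2307 TPM in replicates 1 and 2, and neuroblast and neuron markers to 20 to 83 TPM in replicates 3 and 4 and 31 to 137 TPM in replicates 1 and 2. Endothelial and mural markers summed to 1 to 3 TPM in replicates 3 and 4 and 3 to 10 TPM in replicates 1 and 2. Gene length, taken as RNA counts over deposited TPM and not as an annotated transcript length, moved with the sets in both assays. In 5 equal classes of genes from the shortest to the longest the median RNA log2 difference was 0.36, 0.14, 0.02, -0.07 and -0.34. In footprints it was 0.14, 0.10, 0.06, -0.02 and -0.18, in the same order. By this implied length Apc stood at the 99.3rd percentile, Ctnnb1 at the 77.4th, Fzd3 at the 69.2nd and Gsk3b at the 43.8th. Axin1 at the 81.6th and Axin2 at the 81.2nd were in the longest class, with RNA differences of 0.36 and 0.10. Tcf7l2, Gsk3a, Hdac1 and Lef1 lay between the 42.6th and 59.4th. The part of these measures in the differences of the members was not tested. In footprints, identifier length and culture cannot be told apart. Of the wider lists, 7 genes were higher and 13 lower of 93 tested in RNA, and 5 higher and 10 lower of 95 in footprints. Over all genes 12.1% were higher and 13.1% lower in RNA, and 7.56% higher and 11.5% lower in footprints. By the same test over cultures, Tcf7, another TCF/LEF factor, was 19.3 ± 8.37 CPM in RNA of replicates 3 and 4 and 3.01 ± 2.40 CPM in replicates 1 and 2 (SD, n = 4 each, log2 fold change 2.86, SE 0.41, edgeR adjusted p = 0.00767). Lrp6, the co-receptor of Frizzled, was 90.1 ± 12.8 CPM in replicates 3 and 4 and 172 ± 18.4 CPM in replicates 1 and 2 (-0.94, SE 0.15, edgeR adjusted p = 0.00847). Apcdd1, a membrane inhibitor of Wnt receptors, was 4.31 ± 2.55 CPM in replicates 3 and 4 and 21.2 ± 8.96 CPM in replicates 1 and 2 (-2.24, SE 0.38, edgeR adjusted p = 0.00901). Tnks, the tankyrase that marks Axin for degradation, was lower in replicates 3 and 4 in both assays, by -0.91 (SE 0.17) in RNA and -0.53 (SE 0.11) in footprints.

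Across the 16 libraries, with values centred within each assay, pairs of members differed in how closely they varied together. The highest Pearson correlations were Apc with Fzd3 (r = 0.89), Ctnnb1 with Fzd3 (0.81), Gsk3a with Axin1 (0.77) and Gsk3b with Apc (0.69), and the lowest were Gsk3a with Apc (-0.82) and Ctnnb1 with Hdac1 (-0.79). The values differed between assays: over the 8 RNA libraries r was 0.78 for Gsk3b with Apc and -0.95 for Gsk3a with Apc, while over the 8 footprint libraries it was 0.00 and -0.11. Apc with Fzd3 was 0.96 in RNA and 0.70 in footprints, Ctnnb1 with Fzd3 0.81 and 0.87, Gsk3a with Axin1 0.90 and 0.59, and Ctnnb1 with Hdac1 -0.82 and -0.76. These points share cultures, since each culture gave 2 libraries, and they share the difference between sets of replicates. Of 9424 genes searched, those most like Gsk3b were Whsc1l1, Ddx5 and Mbtd1 (r = 0.90 each), those most like Hdac1 were Mrc2 (0.95), Rnf121 (0.92) and Eif3i (0.91), and those most like Ctnnb1 were Lrrn1, Ube2h (0.98 each) and Zkscan3 (0.97).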

How the data were processed

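Tables by the authors were used: RSEM's estimated counts, deposited as whole numbers, and deposited TPM without decimals, handled as a score. Per the submitters' processing notes, RSEM 1.2.11, TopHat2 2.0.9 and Bowtie2 2.1.0 were among the tools, with build mm10 and without stated roles. The collapsing of identifiers and the use of strand are not given in the sources. RSEM divides shared reads by expectation, so Apc and Hdac1, which have the RefSeq pseudogenes Apc-ps1 and Hdac1-ps with no row in the table, carry that uncertainty, as do overlapping antisense genes. The 27 rows named by bare numbers (0.244 to 0.422% of counts) were removed, leaving 20409 genes.

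Counts were tested with edgeR 4.0.16 in R 4.3.3 (TMM, filterByExpr, quasi-likelihood test, Benjamini-Hochberg over all genes, threshold 0.05). The footprint model held genotype plus identifier length, the RNA model genotype alone, and footprints relative to RNA as the assay by genotype interaction over 16 libraries. The replicate sets were compared with genotype as a covariate, and again with KO and WT counts summed per replicate number. CPM are TMM-scaled within assay, with a prior count of 2 on the log scale; TPM are as deposited. Alternatives used DESeq2 1.42.0 and limma 3.58.1. The scripts were tested on simulated data. Same-numbered KO and WT libraries deviated together (r = 0.48 to 0.61 in RNA, 0.38 to 0.54 in footprints, limit 0.1). The numbers were therefore taken to pair the samples, as read from the data. Libraries of different number gave r of -0.54 to 0.37 in RNA and -0.46 to 0.45 in footprints. Footprints of KO replicate 2 were closer to WT replicate 1 (0.45) than to WT replicate 2 (0.38). Some different numbers within a set also passed the limit, so it does not tell number from set. Replicates are independently isolated cells, per the labels. Named genes were the 10 members, Fmr1 and, of the wider lists, those with the smallest p, the most abundant or the most alike by correlation. The members and lists were chosen with earlier results of these data known. No identifier is named for the RNA libraries, so amplification copies may be counted in them.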

Additional observations from a re-analysis of the deposited data

Results flagged for a closer look

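Within each group of 4 libraries, 3 of the 40 groups tested for the 10 genes held a library standing apart from its group by Dixon's test; chance alone flags about 1 group in 20. Gsk3a footprints were 56.7 CPM in KO replicate 2, the lowest of a group whose other libraries were 65.9 to 66.6 CPM. Apc RNA was 687 CPM in KO replicate 2, the highest of a group otherwise at 81.9 to 169.7 CPM. Lef1 RNA was 2.32 CPM in KO replicate 2, the lowest of a group otherwise at 7.27 to 7.48 CPM. All 3 values come from the culture KO replicate 2, those of Apc and Lef1 from the same RNA library, and no cause was tested.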

How the results depend on the processing

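No member passed the threshold between KO and WT in any of up to 19 alternatives, and the replicate block, which gave 0 members and 0 genes called in footprints, RNA and footprints relative to RNA, changed no member's call. Blocked fits called fewer genes but had more at an unadjusted p of 0.05 (663 in footprints, 708 in RNA). Counts over all genes moved. Genes higher in KO footprints (3) numbered 56 with DESeq2, 1 with TPM at either pseudocount or without a filter and in replicates 3 and 4 alone, and 0 in replicates 1 and 2 alone or with the replicate block; leaving out a culture gave 0 to 11. Genes lower in KO footprints (1) numbered 26 with DESeq2, 3 with limma-voom, 2 with RLE scaling or no filter, and 0 in replicates 1 and 2 alone or with the block, and 0 to 3 on leaving out a culture. In KO RNA, higher genes (1) numbered 13 with DESeq2, 4 with TPM plus 1 (filtered or not), 2 with TPM plus 0.5, and 0 with limma-voom, the block, a replicate-set term or either set alone, and 0 to 1 on leaving out a culture; lower genes (0) numbered 7 with DESeq2. Between replicate sets, DESeq2 called 1545 genes higher in footprints. Summing KO and WT per replicate number, an alternative chosen after seeing the data, left 27 higher and 32 lower genes in RNA, 11 higher and 69 lower in footprints, and 0 members in either. Leaving out a culture gave 483 to 1311 higher and 608 to 1544 lower genes in RNA, 86 to 864 higher and 233 to 1358 lower in footprints, and 1 to 4 members in RNA and 0 to 2 in footprints. For the added footprint-to-RNA comparison, higher genes numbered 5 and lower 1 without a filter, 25 each with DESeq2, and 1 higher with limma-voom. The causes were not tested. Gsk3b in RNA kept its call in 12 of 13 alternatives (-1.22 to -0.83), the exception being that sum. Lef1 had as few as 7 counts in a library.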
